A study of Mus musculus with 12 samples.

Results

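Aggrecan, versican, the 4 matrilins, 2 cartilage link proteins, chondroadherin and Snorc were followed as a set of 10 cartilage matrix genes, chosen by symbol (*Acan*, *Vcan*, *Matn1*, *Matn2*, *Matn3*, *Matn4*, *Hapln1*, *Hapln3*, *Chad* and *Snorc*). All 10 were found among the 54532 genes of the table, and all 10 passed the filter on low values. RNA was measured in limb mesenchyme of mouse embryos at E14.5, in cells sorted by fluorescence. All embryos carried Prrx1-Cre, whose enhancer drives Cre recombinase in limb bud mesenchyme, so both groups share the driver. In the 6 iCreb5 libraries, Cre had switched on a Rosa26 transgene encoding HA-tagged bovine Creb5, with GFP made from the same transcript. In the 6 tdTomato libraries, Cre had switched on a tdTomato transgene at the same locus. Each group had 3 libraries from litter 3 and 1 from each of litters 4, 5 and 6. The design text speaks of 6 litters, and the labels name 4. Batch labels change with the litter, and the effects of batch and litter cannot be told apart. The sources used here do not give strain, embryo sex or the number of embryos behind a library, and the p-values measure only the spread between these samples.

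Cartilage resists compression because aggrecan, a large core protein bearing many chondroitin sulfate chains, is bound along hyaluronan strands and held within a mesh of collagen fibrils. Link proteins lock aggrecan onto hyaluronan, and matrilins are adaptor proteins that tie collagen fibrils to proteoglycans. Versican is the hyaluronan-binding relative of aggrecan that fills embryonic and loose connective tissue, including mesenchyme before it becomes cartilage. Creb5 is a bZIP transcription factor related to the ATF proteins, and the series title connects it with the joint interzone, the tissue in which cartilage differentiation is held back between future bones.

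The genes lie on 8 chromosomes (mm10 build, GENCODE M21 annotation). *Acan* (ENSMUSG00000030607) spans chromosome 7 from 79053483 to 79115099 on the plus strand. *Hapln3* (ENSMUSG00000030606) follows it tail to tail from 79115102 to 79131018 on the minus strand, with 2 bases between the genes. On chromosome 13, *Hapln1* (ENSMUSG00000021613, 89539796 to 89611652, plus strand) and *Vcan* (ENSMUSG00000021614, 89655312 to 89742509, minus strand) also lie tail to tail, 43.7 kb apart and with no annotated gene between them. Each lectican gene thus has a link protein gene as its neighbour. *Matn1* (ENSMUSG00000040533) lies on chromosome 4 from 130944385 to 130955475, *Matn2* (ENSMUSG00000022324) on chromosome 15 from 34306677 to 34436273, *Matn3* (ENSMUSG00000020583) on chromosome 12 from 8947929 to 8972028, and *Matn4* (ENSMUSG00000016995) on chromosome 2 from 164389393 to 164405160. *Chad* (ENSMUSG00000039084) lies on chromosome 11 from 94565047 to 94569127 and *Snorc* (ENSMUSG00000026258) on chromosome 1 from 87470271 to 87475482. All 10 are protein-coding.

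Promoter sequence from RefSeq (build GRCm38.p6) was matched for 8 of the 10 genes. The 250 bases before the RefSeq start are shown for both genes of the *Acan* and *Hapln3* pair. They are also shown for *Matn1*, the most abundant of the genes, and for *Vcan*, the lectican that did not pass the test. RefSeq and GENCODE starts can differ. The *Acan* window ends at 79053225, short of the GENCODE start at 79053483, and the *Hapln1* window (89540386 to 89540635) lies within the GENCODE gene. Capitals mark the only match to any motif searched.
Acan, chr7:79052976-79053225, plus strand: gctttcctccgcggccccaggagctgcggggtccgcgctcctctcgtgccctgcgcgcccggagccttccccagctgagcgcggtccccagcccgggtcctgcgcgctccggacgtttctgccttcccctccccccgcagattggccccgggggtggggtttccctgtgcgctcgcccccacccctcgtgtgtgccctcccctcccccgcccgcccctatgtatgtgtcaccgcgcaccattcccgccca
Hapln3, chr7:79131019-79131268, minus strand: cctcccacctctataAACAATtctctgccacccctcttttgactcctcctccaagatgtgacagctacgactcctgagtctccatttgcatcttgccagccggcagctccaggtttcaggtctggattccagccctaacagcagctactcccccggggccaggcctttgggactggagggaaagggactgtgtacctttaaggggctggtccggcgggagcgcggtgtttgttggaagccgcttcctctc
Matn1, chr4:130944135-130944384, plus strand: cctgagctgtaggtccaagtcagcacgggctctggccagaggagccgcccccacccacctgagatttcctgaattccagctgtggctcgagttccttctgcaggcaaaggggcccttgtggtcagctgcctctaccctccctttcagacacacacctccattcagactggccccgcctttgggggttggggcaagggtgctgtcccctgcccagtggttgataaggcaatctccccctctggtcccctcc
Vcan, chr13:89742513-89742762, minus strand: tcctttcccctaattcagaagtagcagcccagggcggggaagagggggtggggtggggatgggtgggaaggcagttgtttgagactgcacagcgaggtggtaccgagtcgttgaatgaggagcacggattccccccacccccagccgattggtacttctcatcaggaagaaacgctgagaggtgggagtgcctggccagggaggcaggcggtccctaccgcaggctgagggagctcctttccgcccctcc
Both strands were searched for the full cAMP response element TGACGTCA, its core TGACG, the AP-1 element TGANTCA and the SOX element AACAAT; the core lies within the full element. Over the 9 windows of these 8 genes (*Matn4* has 2 annotated starts), 1 window held a match, the SOX element of *Hapln3*. Among all 32851 promoter windows of that length, 1.55% held the full element, 17.8% the core, 6.75% the AP-1 element and 9.42% the SOX element. The absence of a match says only that these letters are not in these windows.

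Setting iCreb5 beside tdTomato cells asks how limb mesenchyme with added Creb5 differs from limb mesenchyme without it. The reporter, GFP or tdTomato, and any difference in sorting by it, change with the group and cannot be told apart from Creb5. As a check of the labels, *Creb5* measured from 2555 to 3162 in iCreb5 libraries and from 1470.5 to 2217 in tdTomato libraries, in normalised read counts, meaning reads per gene scaled by the size factor of the library. Whether bovine transgene reads count towards this gene is unknown. Recovered depth ran from 21.6 to 49.2 M reads in iCreb5 and from 9.02 to 53.3 M reads in tdTomato. A level of 3 reads equals 1.48 to 8.38 in these units, whereas the lowest count of any of the 10 genes in any library was 38 reads (*Hapln3*). The mesenchymal identity of the cells was visible in both groups: 7 limb mesenchyme markers summed to 17392 to 21108 in iCreb5 and 18948 to 25417 in tdTomato, with a median log2 change of -0.25. Cartilage transcripts were abundant in both, with *Col2a1*, the main collagen gene of cartilage, at 58975 ± 11167 on average in iCreb5 and 139868 ± 52503 in tdTomato (± SD over 6 libraries).

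Of the 10 genes, 7 fell in iCreb5 cells, 0 rose and 3 did not pass the test (limma, adjusted p under 0.05 over all genes tested). The 7 were *Acan*, *Matn1*, *Matn3*, *Matn4*, *Hapln1*, *Chad* and *Snorc*. *Vcan*, *Matn2* and *Hapln3* did not pass. At an unadjusted p under 0.05, 8 were lower and 0 higher, and edgeR and DESeq2 on recovered reads each called 7 lower and 0 higher. The share of all genes past the unadjusted threshold is not given here, so unadjusted counts of this and later lists have no baseline. At an adjusted p under 0.05, limma called 2.85% of all 16733 genes tested lower and 3.87% higher. The shares were 2.81% and 3.83% by edgeR, and 4.27% and 5.51% by DESeq2. Scaling the libraries to equal totals gave 799 higher and 382 lower genes in all, against 648 and 477, and left 7 of the 10 lower. The 7 genes had no overlap between groups, which held for 1.92% of all genes in the lower direction and 2.83% in the higher direction. The median log2 change of the 10 genes was -1.61, against 0.00 over all genes. Together the 10 genes made up 0.113 to 0.132% of all normalised counts in iCreb5 libraries and 0.222 to 0.357% in tdTomato libraries. In bulk RNA of this kind, fewer cartilage cells and less RNA per cell cannot be told apart.

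Some markers of other cells also differed between the groups. Over all genes, the shares called by limma were 2.85% lower and 3.87% higher. All 12 of 12 leukocyte markers rose, and they summed to 2570 to 11555 in iCreb5 and 695 to 1117 in tdTomato. Of 7 endothelial markers 5 rose, with sums of 1819 to 4172 in iCreb5 and 1337 to 1864 in tdTomato. Schwann cell and melanoblast markers summed to 198 to 354 in iCreb5 and 414 to 528 in tdTomato (1 of 6 lower), and neuron markers to 177 to 337 in iCreb5 and 295 to 472 in tdTomato (1 of 4 tested lower). In lists this short, 1 call does not set the list apart. No marker of these lists was at 0 in every library. The part of these cells in the results was not tested. Without iCreb5 5 and 6, 7 of the 10 genes were again lower and 0 higher. Among all 16733 genes tested, that setting called 498 lower and 646 higher. It does not address these cells, because the leukocyte sum of every iCreb5 library lay above that of every tdTomato library. Summed muscle, red cell and epidermis markers overlapped between the groups, as did the endothelial and neuron sums.

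**Figure D1:**
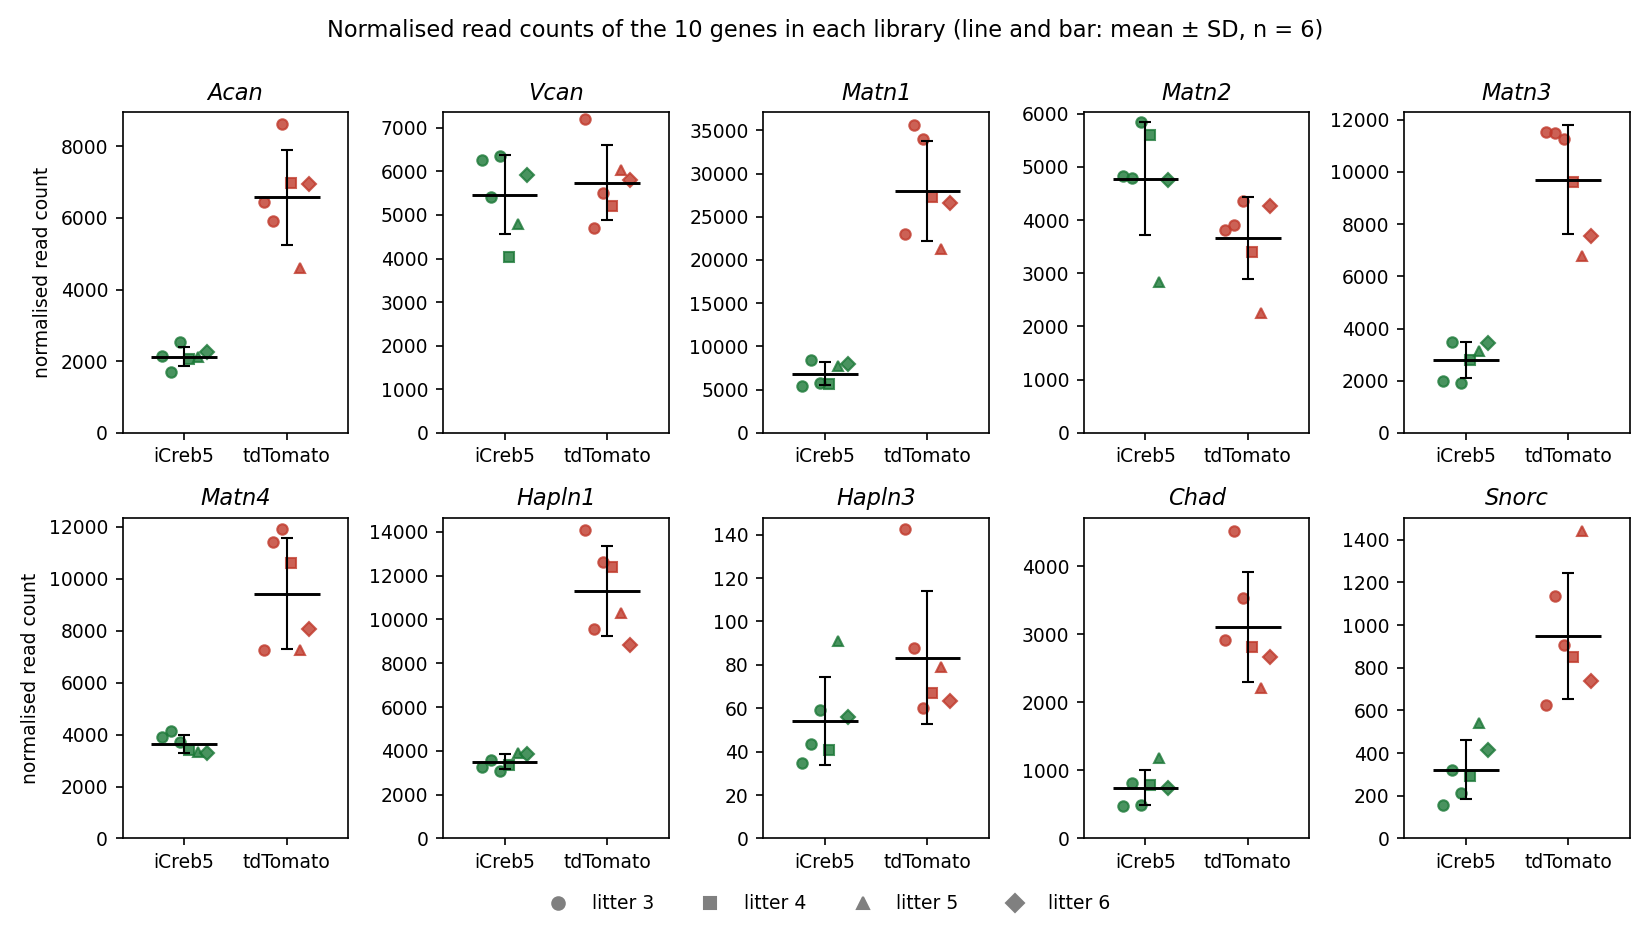
Normalised read counts (linear axes from 0) of the 10 genes in the 6 iCreb5 and 6 tdTomato libraries, with marker shape for the litter and black lines and bars for the mean ± SD. The iCreb5 points lie below every tdTomato point in *Acan*, *Matn1*, *Matn3*, *Matn4*, *Hapln1*, *Chad* and *Snorc*, while the groups overlap in *Vcan*, *Matn2* and *Hapln3*.

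*Acan*, the core protein of the main cartilage proteoglycan, measured 1685 at the lowest, 2123 at the median and 2535 at the highest in iCreb5, against 4596, 6694 and 8608 in tdTomato. The highest iCreb5 library stayed well under the lowest tdTomato library, which was 5b. The group means were 2129.9 ± 276 in iCreb5 and 6577 ± 1326 in tdTomato (SD, n = 6). The level was 3.06-fold higher in tdTomato, with -1.61 ± 0.14 as log2 change and its SE (adjusted p = 2.82e-06). By litter, the change was -1.72 in litter 3, -1.75 in litter 4, -1.12 in litter 5 and -1.63 in litter 6.

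*Vcan*, the other lectican measured at high level, did not follow *Acan*. It measured 4036 at the lowest, 5660.2 at the median and 6362 at the highest in iCreb5, against 4703, 5655 and 7200.4 in tdTomato. The medians nearly coincide, and the ranges overlap with both ends lower in iCreb5. On the log2 scale it changed by -0.08 ± 0.13 (SE; 95% interval -0.35 to 0.20, adjusted p = 0.822), and its sign differed between litters, with 2 litters higher and 2 lower. Whether this holds for each splice form of *Vcan* was not analysed here.

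The difference between the lecticans was tested within libraries, by subtracting the log2 value of *Acan* from that of every gene. Relative to *Acan*, *Vcan* was higher by 1.53 ± 0.20 on the log2 scale (SE; 95% interval 1.13 to 1.94, adjusted p = 1.95e-07). Most genes pass this test, because *Acan* fell and most genes did not: 95.3% of 16732 genes lay above *Acan* and 0.114% below it. Per kb of annotated exon, the ratio of *Acan* to *Vcan* was 0.567 at the lowest, 0.710 at the median and 0.933 at the highest in iCreb5 libraries, and 1.39, 2.23 and 2.85 in tdTomato libraries. *Acan* was thus the more abundant lectican in every tdTomato library and the less abundant one in every iCreb5 library, on this length scale.

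Of the lecticans best known from brain, *Bcan* was scarce and lower in iCreb5 (6.22 ± 5.35 in iCreb5 and 24.9 ± 9.50 in tdTomato, SD, n = 6, limma adjusted p = 0.0316). Its iCreb5 mean lay within the range of the 3-read level, 1.48 to 8.38. *Bcan* passed the filter on low values through its tdTomato libraries, so its call is not independent of that filter. *Ncan* measured 51.0 ± 19.4 in iCreb5 and 26.6 ± 14.4 in tdTomato (adjusted p = 0.185). With *Chadl*, a chondroadherin-like gene of cartilage (1349.9 ± 149.98 in iCreb5 and 2193 ± 611 in tdTomato, adjusted p = 0.0451), 2 of 3 tested relatives were lower. Over all genes, limma called 2.85% lower and 3.87% higher. Without the filter on low values, 0 relatives were lower. At an unadjusted p under 0.05 the counts were 2 lower and 1 higher. These calls were fragile, and the count of lower relatives ran from 0 to 2 when single libraries were left out: it was 0 without iCreb5 3a, iCreb5 6, tdTomato 3b, tdTomato 3c, tdTomato 5b or tdTomato 6d, and 1 without iCreb5 3b, iCreb5 3c, iCreb5 4a, iCreb5 5 or tdTomato 4a. The link protein genes *Hapln2* and *Hapln4* reached at most 5.48 and 40.4 in any library and were not tested.

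Of the link proteins, *Hapln1*, which stabilises aggrecan on hyaluronan in cartilage, fell with *Acan*. It measured 3090.3 at the lowest, 3471 at the median and 3908 at the highest in iCreb5, against 8839.6, 11352 and 14097 in tdTomato. No iCreb5 library came near the lowest tdTomato library. The log2 change was -1.67 ± 0.12 (SE; adjusted p = 5.52e-07), 3.19-fold higher in tdTomato, with litter values from -1.89 to -1.19. Relative to *Acan* the change was -0.06 ± 0.19 (SE; 95% interval -0.45 to 0.33, adjusted p = 0.758). The ratio of *Hapln1* to *Acan* per kb had a median of 2.16 in iCreb5 and 2.19 in tdTomato, and its ranges of 1.57 to 2.74 in iCreb5 and 1.64 to 2.88 in tdTomato overlapped nearly whole. Its neighbour *Vcan*, by contrast, was far above 0 on this relative scale, as given above.

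*Hapln3*, a link protein gene with a wider distribution, was the least abundant of the 10. It measured 34.6 at the lowest, 49.8 at the median and 90.8 at the highest in iCreb5, against 60.3, 73.1 and 142 in tdTomato. The groups overlapped only through iCreb5 5, since the other 5 iCreb5 libraries reached at most 59.2. Between group means the log2 change was -0.62 ± 0.28 (SE; 95% interval -1.21 to -0.03), with an unadjusted p of 0.0416 and an adjusted p of 0.248. It was lower in 3 of 4 litters and higher in litter 5 (0.20). Relative to *Acan* it was higher by 0.99 ± 0.33 (SE, adjusted p = 0.00684), as were 95.3% of all genes in that test. Its tail meets that of *Acan*, and whether counting used strand is not known here, so reads running past the end of *Acan* could be counted for *Hapln3*; this was not tested.

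**Figure D2:**
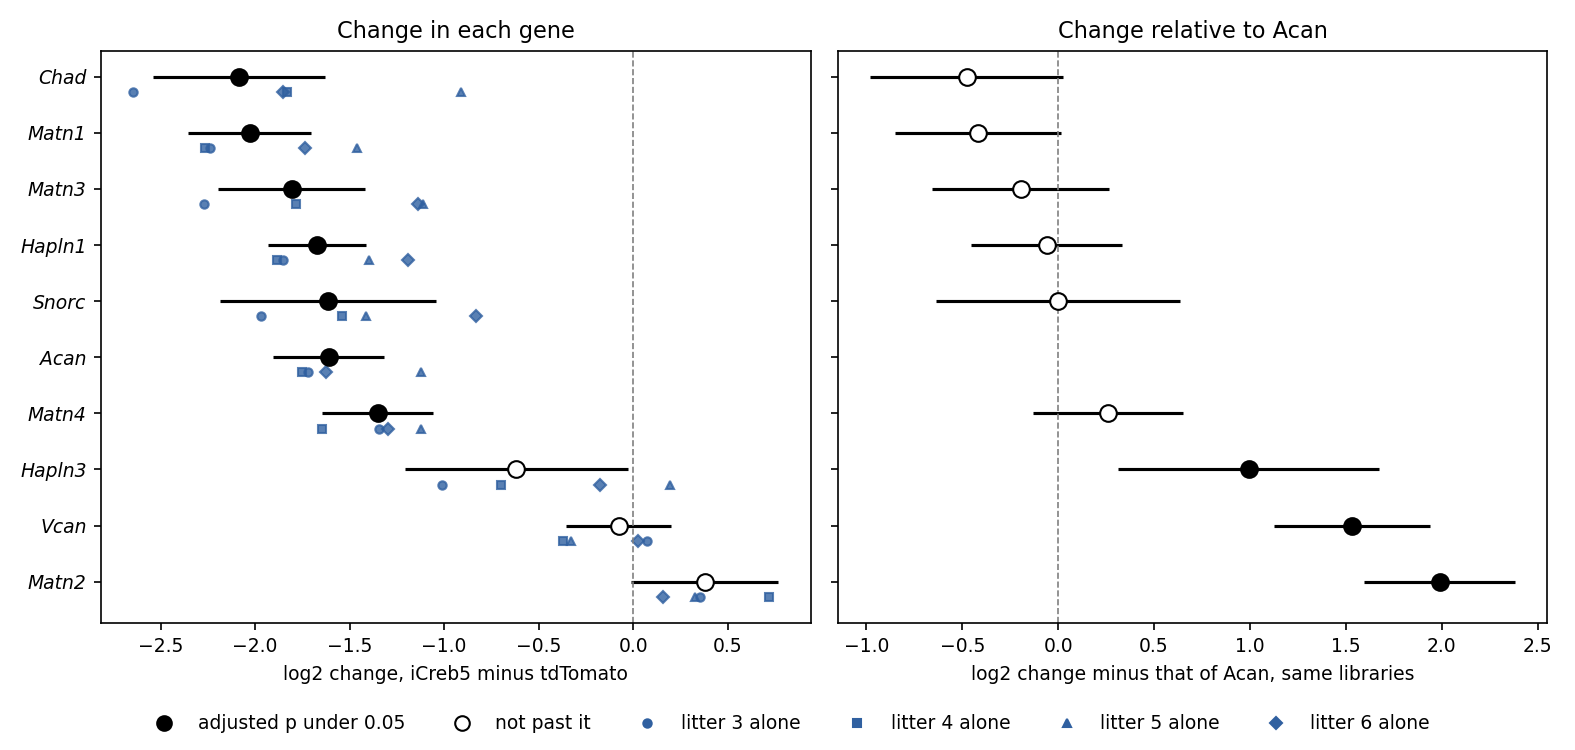
Left, log2 change (iCreb5 minus tdTomato) of each gene with its 95% interval, and in blue the difference within each litter. Right, the same change minus that of *Acan*. Filled circles mark an adjusted p under 0.05. The 7 genes that fell have changes from -2.09 (*Chad*) to -1.35 (*Matn4*). Relative to *Acan* only *Hapln3*, *Vcan* and *Matn2* have filled circles, and 95.3% of all genes pass above *Acan* in that test.

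The matrilins divided. *Matn1*, the matrilin of mature cartilage, measured 5438 at the lowest, 6732 at the median and 8483 at the highest in iCreb5, against 21273, 26956 and 35599.8 in tdTomato. The lowest tdTomato library held more than any iCreb5 library by a wide margin. Its log2 change was -2.03 ± 0.15 (SE; adjusted p = 7.61e-07), 4.08-fold higher in tdTomato, and from -2.26 to -1.46 across the 4 litters.

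*Matn3*, a cartilage matrilin that forms mixed oligomers with matrilin 1, measured 1903 at the lowest, 2964 at the median and 3498 at the highest in iCreb5, against 6782, 10431 and 11534 in tdTomato. Its groups did not overlap. The log2 change was -1.81 ± 0.18 (SE; adjusted p = 1.54e-05), 3.50-fold higher in tdTomato. It was -2.27 in litter 3 and -1.34 in litters 4 to 6. The difference between these sets of litters had an unadjusted p of 0.00831 and an adjusted p of 0.501. The ratio of *Matn1* to *Matn3* per kb was 3.07 to 4.55 in iCreb5 and 3.00 to 5.30 in tdTomato, so the groups overlapped in it.

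*Matn4*, a matrilin of cartilage and other tissues, measured 3277 at the lowest, 3553 at the median and 4137 at the highest in iCreb5, against 7252, 9339 and 11922 in tdTomato. The groups did not overlap, and the iCreb5 libraries lay close together, with an SD of 9.72% of their mean against 22.7% in tdTomato. The log2 change was -1.35 ± 0.14 (SE; adjusted p = 1.69e-05), 2.55-fold higher in tdTomato. In litters 4 to 6 it was -1.36. It shares 71 exon bases with the opposite-strand gene *Rbpjl*, which averaged 24.4 in iCreb5 and 77.2 in tdTomato, small beside *Matn4* itself.

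*Matn2*, the matrilin of loose connective tissue and many non-skeletal tissues, was the 1 member of the family with a higher mean in iCreb5. It measured 2827 at the lowest, 4809 at the median and 5848 at the highest in iCreb5, against 2253, 3856 and 4354 in tdTomato. The groups overlapped only through iCreb5 5, since the other 5 iCreb5 libraries all lay above the highest tdTomato library. In litter 5 both groups had their lowest library. The change on the log2 scale was 0.38 ± 0.18 (SE; 95% interval -0.01 to 0.77, adjusted p = 0.292). Within litters it was higher in 4 of 4, by 0.15 to 0.72, and with litter as the replicate block the adjusted p was 0.0237. That fit called 5.13% of all genes higher and 4.35% lower. With litter 3 averaged to 1 value per group in that block the adjusted p was 0.0896. Relative to *Acan*, *Matn2* was higher by 1.99 ± 0.19 (SE, adjusted p = 9.77e-09), as were 95.3% of all genes in that test. The ratio of *Matn1* to *Matn2* per kb was 3.00 to 8.31 in iCreb5 and 18.4 to 28.8 in tdTomato, without overlap.

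*Chad* encodes chondroadherin, a leucine-rich repeat protein through which chondrocytes attach to matrix. It measured 475 at the lowest, 763 at the median and 1178 at the highest in iCreb5, against 2215, 2862 and 4508 in tdTomato. No library of either group reached into the range of the other. On the log2 scale it changed by -2.09 ± 0.21 (SE; adjusted p = 1.70e-05), 4.25-fold higher in tdTomato. With litter 3 averaged to 1 value per group in a litter block it was -1.81, against -1.93 for *Matn1*. The fall was -2.64 in litter 3 and -0.91 in litter 5. Between litter 3 and litters 4 to 6 the change differed by -1.11 ± 0.35 (SE; unadjusted p = 0.00704, adjusted p = 0.501). Relative to *Acan*, *Chad* was at -0.48 ± 0.24 (SE; 95% interval -0.98 to 0.03, adjusted p = 0.0654), and with litter as the replicate block the adjusted p was 0.0404. Averaging litter 3 in that block gave -0.25 (adjusted p = 0.277), and litters 4 to 6 gave -0.03 (adjusted p = 0.922). Without iCreb5 3b the adjusted p was 0.0353 and without iCreb5 5 it was 0.0185. *Matn1* had a relative change of -0.42 ± 0.21 (SE; adjusted p = 0.0606), and an adjusted p of 0.0127 without iCreb5 3b.

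*Snorc*, a small transmembrane chondroitin sulfate proteoglycan gene of cartilage, varied widely between libraries, with an SD of 43.0% of the mean in iCreb5 and 31.1% in tdTomato. It measured 158 at the lowest, 306 at the median and 539.7 at the highest in iCreb5, against 625, 879 and 1439 in tdTomato. The groups came close without overlapping. The change was -1.61 ± 0.27 (SE; adjusted p = 0.00127), 3.06-fold higher in tdTomato, and from -1.97 in litter 3 to -0.83 in litter 6.

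All 7 genes that fell were lower in 4 of 4 litters. This follows from the lack of overlap between their groups and is not a separate result. Of these 7, 5 had their smallest fall in litter 5 and 2 in litter 6. Among tdTomato libraries, 5b was the lowest for 6 of the 10 genes, and among iCreb5 libraries, 5 was the highest for 4. The difference in change between litter 3 and litters 4 to 6 passed for 0 of the 10 genes and for 0 of all 16733 genes (0% called, limma interaction). At an unadjusted p under 0.05 it passed for 2 of the 10 genes and for 1500 of all genes. Taken alone, litter 3 and litters 4 to 6 each called 7 of the 10 genes lower. In litter 3 alone 1.75% of all genes were called lower and 2.36% higher, and in litters 4 to 6, with litter as a term, 2.2% lower and 1.91% higher.

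Levels of different genes were compared per kb of annotated exon, a scale that does not correct for which splice forms are made. In iCreb5 the order of mean levels per kb was *Matn1* (3419.7), *Matn4* (1533), *Matn3* (927), *Matn2* (783), *Snorc* (675), *Hapln1* (614), *Chad* (445), *Vcan* (407), *Acan* (289.6) and *Hapln3* (16.1). In tdTomato it was *Matn1* (13976), *Matn4* (3981), *Matn3* (3219), *Snorc* (1985), *Hapln1* (1977), *Chad* (1849), *Acan* (894), *Matn2* (601), *Vcan* (428) and *Hapln3* (24.8). *Matn1* stood apart from its neighbour in both groups. In iCreb5 the other separated neighbours were *Matn4* over *Matn3* and *Acan* over *Hapln3*, and in tdTomato *Chad* over *Acan* and *Vcan* over *Hapln3*. All other neighbours had overlapping ranges. *Acan* stood in place 9 in iCreb5 and place 7 in tdTomato, and *Matn2* in place 4 in iCreb5 and place 8 in tdTomato.

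**Figure D3:**
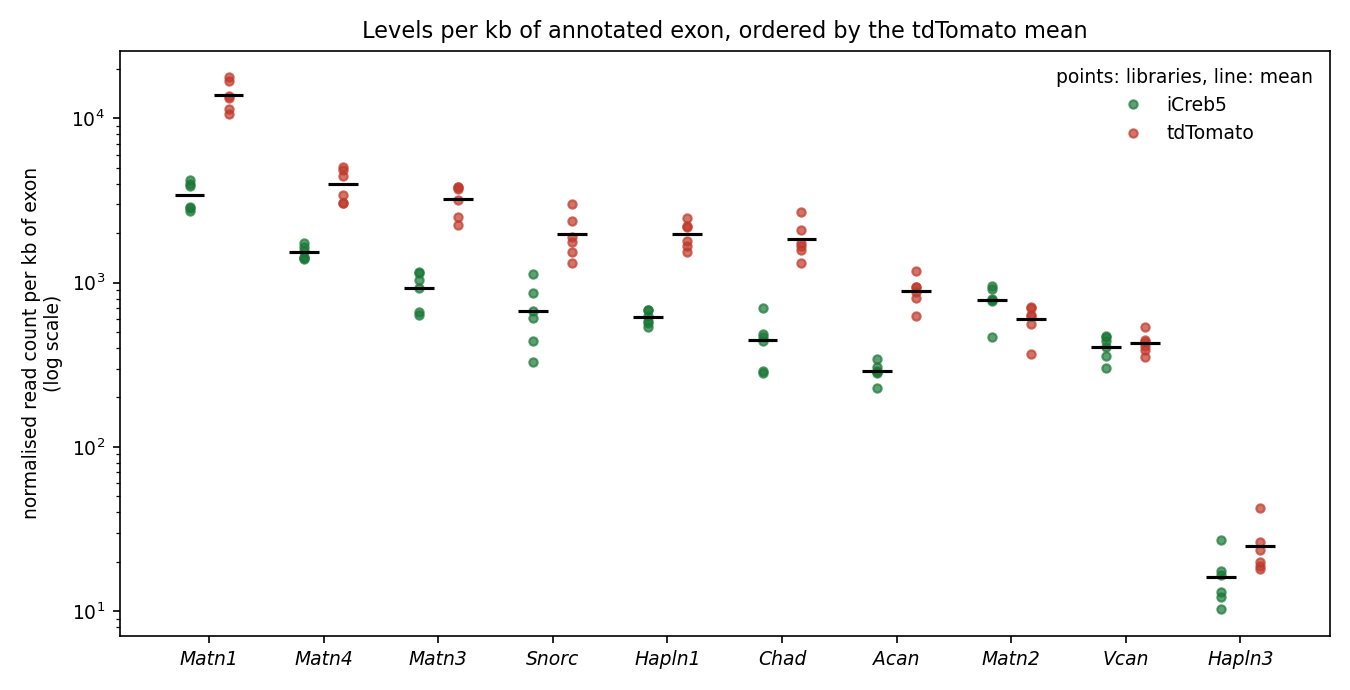
Normalised read count per kb of annotated exon (log axis) in each library, iCreb5 left of tdTomato for each gene, with lines for group means. *Matn1* is highest and *Hapln3* lowest in both groups, and the group means of *Vcan* are 407 in iCreb5 and 428 in tdTomato.

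Genes outside the set whose pattern over the 12 libraries was most like that of *Acan* were sought by the root mean square difference of centred log2 values, among 12401 genes. The closest was *Col11a1*, a minor fibrillar collagen gene of cartilage, at a difference of 0.17, where the median gene was at 0.88. It averaged 6040.1 ± 723 in iCreb5 and 17791 ± 1917 in tdTomato (SD, n = 6). *Bmp5*, a bone morphogenetic protein gene, and the imprinted zinc-finger gene *Zim1* followed at 0.25 each. *Tnfrsf11b*, which encodes the decoy receptor osteoprotegerin, stood at 0.26 and the exostosin-like gene *Extl1* at 0.28. Within the set, *Hapln1* (0.27) and *Matn4* (0.29) were the closest to *Acan* and *Matn2* (1.03) the farthest. For *Vcan* the closest were *Taok1* (0.10), *Terf2* (0.10), *Nipbl* (0.12), *Nemp2* (0.12) and *Hnrnph1* (0.12), where the median gene was at 0.37.

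The partners of these proteins in the cartilage network moved unevenly. Of 21 network partners, 13 fell and 0 rose, while 8 did not pass, with a median log2 change of -1.18. The shares over all genes were 2.85% lower and 3.87% higher by limma. Before adjustment 14 were lower and 2 higher at p under 0.05, and edgeR and DESeq2 called 0 higher; without iCreb5 5, limma called 1 higher. *Ucma*, a Gla-rich cartilage protein gene, fell (20.3 ± 7.82 in iCreb5 and 124.9 ± 35.9 in tdTomato, log2 change -2.59 ± 0.29 (SE), adjusted p = 3.74e-05). *Comp*, which encodes a matrilin-binding thrombospondin of cartilage, fell by 2.03 ± 0.20 on the log2 scale (SE; adjusted p = 1.48e-05). *Epyc*, a small leucine-rich proteoglycan gene of cartilage, had -1.88 ± 0.24 (SE; adjusted p = 0.000109). *Dcn*, the decorin gene of most connective tissues, measured 40832 ± 6414 in iCreb5 and 40336 ± 9197 in tdTomato (log2 change 0.04 ± 0.15 (SE), adjusted p = 0.937). *Col2a1* had a change of 0.45 ± 0.24 (SE) relative to *Acan* (adjusted p = 0.0845).

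Of 10 tested hyaluronan genes, 0 were lower and 0 were higher by limma, edgeR and DESeq2, and the median log2 change was 0.11. With 2.85% of all genes called lower and 3.87% higher by limma, 0 of 10 does not set these genes apart. Without adjustment, 1 was lower and 2 were higher at p under 0.05. The count of higher genes was 1 with litter as the replicate block, with litter 3 averaged in that block, and in litters 4 to 6. *Tnfaip6*, a hyaluronan-binding protein gene and the most abundant of them, measured 4038 ± 1180 in iCreb5 and 2840.2 ± 654 in tdTomato (log2 change 0.49 ± 0.19 (SE), adjusted p = 0.161). In litters 4 to 6 its change was 0.75 (adjusted p = 0.0185). *Has2*, the main hyaluronan synthase gene of the limb, was named after its values were seen, and measured 1441 ± 221 in iCreb5 and 1318 ± 231 in tdTomato (adjusted p = 0.698).

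Of 9 tested genes for proteases of aggrecan and versican and their inhibitor, 1 was lower and 0 were higher, with a median log2 change of 0.05. Limma called 2.85% of all genes lower and 3.87% higher, and a list of 9 is too short to be set apart by 1 call. The 1 that fell was *Mmp13*, a collagenase gene of hypertrophic cartilage (15.1 ± 19.2 in iCreb5 and 77.2 ± 34.5 in tdTomato, log2 change -2.82 ± 0.54 (SE), adjusted p = 0.00374). Its level was low, its groups overlapped, and its SD in iCreb5 exceeded its mean there. At an unadjusted p under 0.05, 2 were lower and 3 higher, and DESeq2 called 2 lower and 1 higher, against 1 and 0 by edgeR. Without tdTomato 3c, 2 were lower, and without iCreb5 5, 1 was higher, both by limma. The litter block called 1 lower and 1 higher, and that block with litter 3 averaged, like litters 4 to 6, called 2 lower and 0 higher. *Timp3*, an inhibitor of aggrecanases, measured 6989 ± 1356 in iCreb5 and 7260.3 ± 1268 in tdTomato (adjusted p = 0.884).

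Among 24 chondroitin sulfate genes, which build and sulfate the chains that aggrecan and versican carry, 6 fell and 0 rose, while 18 did not pass. Their median log2 change was -0.24. Among all genes, 2.85% were lower and 3.87% higher by limma. With unadjusted p under 0.05, 9 were lower and 0 higher, and edgeR and DESeq2 called 0 higher. Of the 6, 2 are the sulfotransferase genes *Chst13* and *Chst11*. *Chst13* was scarce, at 28.7 ± 9.44 in tdTomato and 6.67 ± 6.74 in iCreb5 (adjusted p = 0.0282). At that iCreb5 level, under the filter value of 10, counts are near the 3-read level (1.48 to 8.38). The gene was tested because of its tdTomato values, which ties the call to the filter. Of the 24 genes, 5 were lower without that filter, with a filter at 50 in 6 libraries, and by edgeR. DESeq2 called 6 lower, and litter 3 alone gave 4. *Chst11* measured 202 ± 39.1 in iCreb5 and 640.01 ± 146 in tdTomato (log2 change -1.65 ± 0.18 (SE), adjusted p = 2.84e-05). *Slc26a2*, the sulfate transporter gene of cartilage, had -1.26 ± 0.20 (SE; adjusted p = 0.000751). *Chpf*, a chondroitin polymerising factor gene, measured 4801 ± 799.6 in iCreb5 and 5559 ± 1355 in tdTomato (adjusted p = 0.626).

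Of 12 regulators of cartilage differentiation, 7 fell and 1 rose, while 4 did not pass, with a median log2 change of -0.70. Over all genes the shares were 2.85% lower and 3.87% higher by limma. By edgeR and DESeq2, 8 regulators were lower and 1 higher. The count of lower ones was 6 without the filter on low values and 4 in litter 3 alone. In litters 4 to 6, 6 were lower and 0 higher. The 7 had changes from -1.26 to -0.55. *Runx3* (-1.26 ± 0.22, SE; adjusted p = 0.00193), *Fgfr3* (-1.25 ± 0.21; adjusted p = 0.00124) and *Wwp2* (-1.02 ± 0.15; adjusted p = 0.000534), which hosts the cartilage microRNA miR-140, led them. *Arid5b*, a chromatin regulator and partner of Sox9, was the 1 that rose (1686 ± 127 in iCreb5 and 1165 ± 170.2 in tdTomato, log2 change 0.54 ± 0.11 (SE), adjusted p = 0.00707). *Sox9*, the master regulator that activates *Acan*, *Matn1* and *Hapln1*, fell by 0.78 ± 0.15 on the log2 scale (SE; adjusted p = 0.00288). Its fall was smaller than that of *Acan*, by 0.83 ± 0.20 on the log2 scale (SE, adjusted p = 0.000562). In that test 95.3% of all genes lay above *Acan*. *Trps1*, a zinc-finger regulator of growth plate cartilage, had -0.16 ± 0.24 (SE; adjusted p = 0.785). In litters 4 to 6, *Sox9* (-0.52, adjusted p = 0.0615) and *Arid5b* (0.44, adjusted p = 0.135) did not pass by limma.

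**Figure D4:**
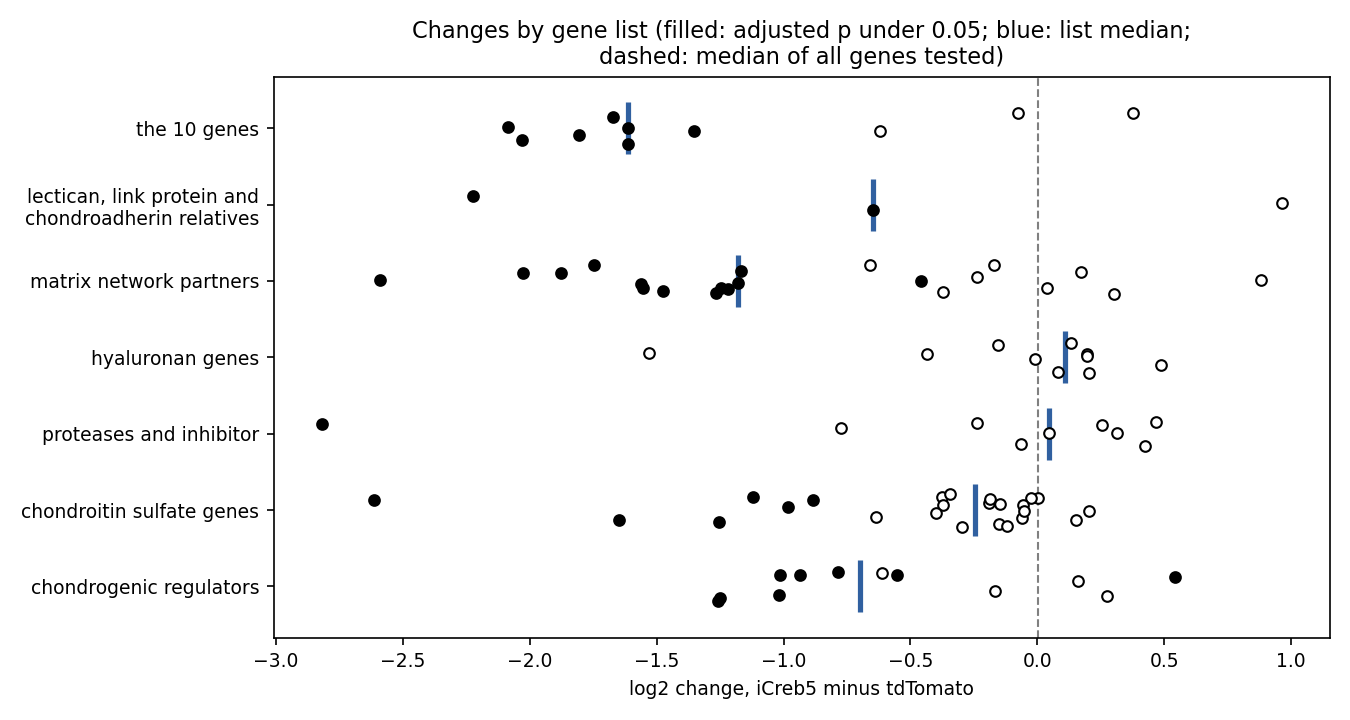
Log2 change (iCreb5 minus tdTomato) of each tested gene, by list. Filled circles mark an adjusted p under 0.05, blue bars the list median and the dashed line the median of all genes tested; the list medians run from -1.61 for the 10 genes to 0.11 for the hyaluronan genes.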

How the data were processed

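RNA was sequenced from 12 libraries, 6 of each group, and the analysis began from the authors' deposited table. FastQC, STAR, Salmon, DESeq2 and build mm10 are named without roles in the submitters' processing notes. The deposited values are normalised signal per gene, read as counts scaled by a size factor per library, as judged from the values: 100% were whole multiples of 1 unit within 1e-06, so whole reads were recovered. On the recovered reads edgeR 4.0.16 (quasi-likelihood) called 641 genes higher and 471 lower, and DESeq2 1.42.0 called 922 higher and 715 lower. A further 8 columns, of stage P0, matched no labelled sample and were not used. Gene IDs were paired with symbols for 54409 of 54532 genes, and *Bpnt2* was found under its synonym.

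The main test was limma 3.58.1 in R 4.3.3, two-sided, with eBayes and its trend option, fitted without covariates to log2(value + 1). It covered 16733 genes, those reaching 10 in 6 or more libraries. Calls needed a p under 0.05 after Benjamini-Hochberg adjustment. limma called 648 higher and 477 lower. Folds compare geometric means of value + 1, which shrinks the change of weakly expressed genes. The change relative to *Acan* is the same fit on log2 values minus that of *Acan* in each library. Exon length is the union of exons in GENCODE M21. The level at 3 reads covers counting error only. The labels give the litter, so same-litter libraries pair the groups; deviations from the group means correlated at 0.13, 0.15, 0.35 and 0.00 across genes in litters 3, 4, 5 and 6. Scripts were tested on simulated counts. The 10 genes and the lists were chosen with earlier results of these data known, and no list was given a set test. Named from each list were up to 3 called genes, by size of change, and the most abundant uncalled one; *Col2a1*, *Sox9* and *Arid5b* were added with their values known; for *Acan* and *Vcan*, the 5 genes of most alike pattern with a mean of at least 50.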

Additional observations from a re-analysis of the deposited data

Results flagged for a closer look

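Among the 20 groups of 6 values formed by the 10 genes, 2 held a library far from the other 5, where chance gives about 1 in 20. *Matn2* in iCreb5 5 was low at 2827, against 4745 to 5848 in the other iCreb5 libraries; tdTomato 5b, of the same litter, was the lowest tdTomato library. Without iCreb5 5 the log2 change of *Matn2* was 0.52 and the adjusted p 0.0521, against 0.38 and 0.292 with it (limma). *Hapln3* in tdTomato 3a was high at 142, against 60.3 to 88.0 in the other tdTomato libraries. That library is the shallowest, at 9.02 M reads, and its value rests on 51 reads. Without it the log2 change of *Hapln3* was -0.45 and the adjusted p 0.435.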

How the results depend on the processing

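The 7 genes that fell were lower with an adjusted p under 0.05 in all 26 alternatives, and their highest adjusted p was 0.00758 (*Snorc*, litter 3 alone). With litter as the replicate block, *Matn2* passed (log2 change 0.38), which made 1 gene higher; *Chad* relative to *Acan* passed (-0.48) but did not with litter 3 averaged (-0.25), 728 genes were called lower in all, and the other calls for the 10 genes did not change. The log2 change of *Vcan* was above 0 in litter 3 alone (0.0705) and without tdTomato 3a and 5b (0.0277), and ran from -0.13 to 0.00628 when single libraries were left out. Relative to *Acan*, values that never passed changed sign: *Snorc* was at 0.12 with litter 3 averaged, 0.00995 with pseudocount 5, 0.24 in litters 4 to 6 and 0.15 without tdTomato 3a and 5b; *Hapln1* was at 0.00949 in litters 4 to 6 and 0.12 without those 2 libraries; *Matn3* was at 0.16 in litters 4 to 6. Leaving out single libraries gave -0.15 to 0.0276 for *Hapln1*, -0.17 to 0.23 for *Snorc*, -0.62 to -0.32 for *Chad* and -0.55 to -0.32 for *Matn1*. Relative to *Acan*, *Hapln3* no longer passed in litter 3 alone (0.71), *Chad* passed there (-0.92) and without iCreb5 5 and 6 (-0.65) but was at -0.03 in litters 4 to 6, and *Matn1* passed without tdTomato 3a and 5b (-0.45). The cause of these shifts was not tested. Litter 3 alone called 395 genes higher and 292 lower, and litters 4 to 6 called 320 higher, each with 6 libraries in place of 12. Equal library totals raised the higher calls to 799 and reduced the lower calls to 382, against 648 and 477. The change relative to *Acan* was not run with edgeR or DESeq2. Depth limits *Hapln3*, with 38 reads in its lowest library.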
